A study of Homo sapiens with 21 samples.

Results

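The subject is the difference between HepG2/C3A spheroids at Day 10 and the same cells grown as a 2D monolayer, read across all genes. The libraries were chosen by their labels alone: 3 Day 10 libraries and 3 monolayer libraries out of 21 in the series. HepG2/C3A is an established line derived from a human liver tumour, labelled wild type and epithelial-like, and no drug or other agent distinguished the groups. The tested cells had been forced into aggregates in ultra-low attachment plates and cultured on, up to Day 10, in a rotating ClinoReactor, while their controls stayed flat. The sample labels give no day for the monolayer, so growth form and time in culture cannot be told apart in this comparison. Spheroids of Days 3, 7, 14, 21 and 28, with 3 libraries each, complete the series, and Days 7 and 14 serve below as the neighbours in time of Day 10. Transcripts were counted by TempO-Seq, which ligates pairs of short probes on each target RNA and sequences the ligated product.

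Hepatocytes secrete most plasma proteins and lipoproteins, make cholesterol, bile acids and urea, and oxidise drugs through cytochrome P450 enzymes. Hepatoma lines on flat plastic keep only some of these activities, and growth as a spheroid, where cells touch other cells on all sides and receive oxygen and nutrients by diffusion, is a common way to seek more of them. Cells spread on a stiff surface are known for active YAP, the coactivator of TEAD transcription factors, and for stress fibres of actin.

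The Day 10 libraries held 24296372 to 37718667 counts and the monolayer libraries 26709296 to 43443262. Levels are in CPM, counts for every 1000000 of the TMM-scaled library size. Differences are fitted log2 fold changes ± SE, Day 10 over monolayer, unless another pair is named. Calls rest on edgeR's quasi-likelihood test over 12345 genes with a Benjamini-Hochberg limit of 0.05, and in the counts for gene lists "higher" or "lower" means called and at least 2-fold. The median within-group SD of log2 CPM was 0.136 at Day 10 and 0.122 in the monolayer. Replicate 3 of Day 10 stood further from replicates 1 and 2 (chi-square per degree of freedom 15.0 and 19.6) than these did from each other (6.62). The labels call replicates biological without saying whether they are separate cultures, so the p-values cover only library-to-library spread, which may be technical. A probe sets the level of its gene, so levels are compared between libraries and not between genes.

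The libraries carried the transcripts of hepatocyte-like cells. All 10 hepatocyte markers were tested and called higher, and together they held 6.42 to 6.47% of the counts at Day 10, against 1.02 to 1.06% in the monolayer. Among markers of other liver cell types, 5 of 10 for stellate cells and fibroblasts were at 0 counts in all 6 libraries (COL1A1, COL1A2, DCN, DES, LRAT), as were 3 of 10 for endothelial cells (KDR, STAB2, CLEC4G), 4 of 10 for macrophages and leukocytes (PTPRC, CD163, MARCO, CD3E) and 3 of 10 for cholangiocytes (CFTR and MUC1 among them). The summed level of the stellate list was 24.2 to 32.1 CPM at Day 10 and 8.35 to 13.4 CPM in the monolayer, and that of the endothelial list 1.7 to 2.7 and 4.29 to 5.68 CPM. The macrophage list summed to 204.5 to 215.7 CPM at Day 10 and 64.7 to 69.3 CPM in the monolayer, and the cholangiocyte list to 1540 to 1594 and 946 to 978 CPM. Among these lists, PDGFRB, ACTA2, CD14, CD68, LYZ, ANXA4 and SOX9 were called higher and ENG, EPCAM, SPP1 and KRT19 lower. The part of these markers in the results below was not tested. In bulk RNA, fewer cells of one kind and less RNA per cell cannot be told apart.

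Day 10 spheroids differed from the monolayer at most genes. Of the 12345 genes tested, 9618 were called (77.9%), 4936 higher (40.0%) and 4682 lower (37.9%). By at least 2-fold, 5692 were called (46.1%), 3203 higher (25.9%) and 2489 lower (20.2%), and these are the shares against which the list counts below should be read. The median log2 fold change over all genes was 0.05, with quartiles at -0.83 and 1.16. By at least 16-fold, 477 genes were higher and 202 lower. The libraries of the groups did not overlap for 9803 genes (79.4%).

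**Figure D1:**
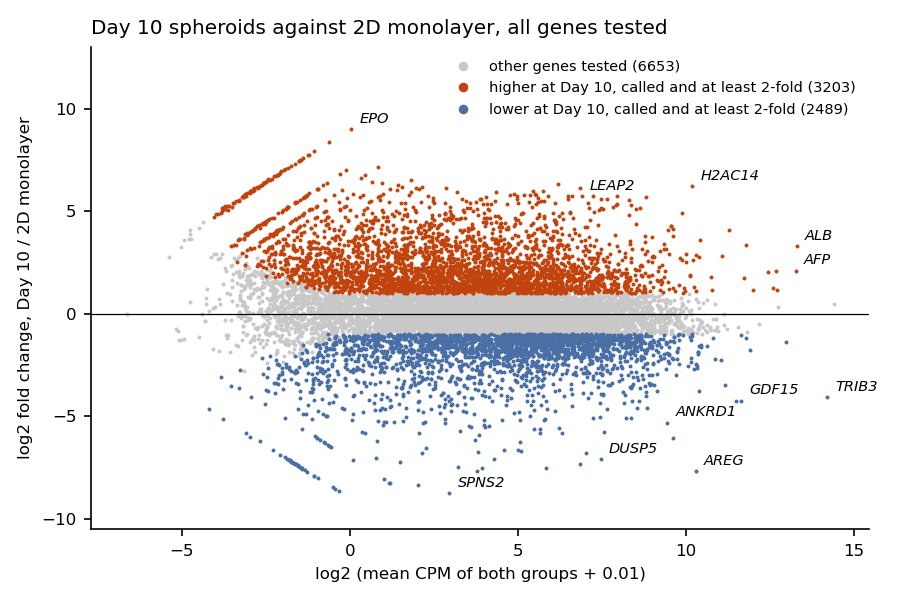
Log2 fold change, Day 10 over 2D monolayer, against the log2 of the mean CPM of both groups plus 0.01, 1 point per gene tested. Red points are the 3203 genes called at least 2-fold higher, blue points the 2489 called at least 2-fold lower. The diagonal rows at low levels are genes with 0 or few counts in one group, whose fitted values depend on the prior count; EPO is one of them.

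The genes with the largest rises among those of at least 10 CPM were 4 histone genes and TMEM37, a membrane protein. H2BC14, which encodes a histone H2B, stood at 152, 151 and 133 CPM at Day 10 and at 1.82, 1.86 and 1.82 CPM in the monolayer (log2 difference 6.30 ± 0.32). H2AC14 (6.20 ± 0.31), H3C15 (6.12 ± 0.29) and the linker histone H1-5 (6.11 ± 0.35) followed on the log2 scale. TMEM37 stood at 109, 112 and 97.1 CPM at Day 10 and at 2.12, 1.58 and 1.37 CPM in the monolayer (6.0 ± 0.16). In each of these 5 genes the Day 10 libraries all lay above every monolayer library, which the rule that chose them required. Histone genes have near-identical copies that can share counts, so the value of any single one is uncertain.

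SPNS2, AREG, AHNAK2, RGCC and ATP6V0D2 had the largest falls among genes of at least 10 CPM in the monolayer. SPNS2, an exporter of sphingosine 1-phosphate, had 3 counts over the Day 10 libraries and 1455 over the monolayer libraries, a ratio of 476 in favour of the monolayer with a 95% counting interval of 163 to 2310. AREG, the epidermal growth factor receptor (EGFR) ligand amphiregulin, fell to 10.6, 13.6 and 12.7 CPM at Day 10, against 2302, 2619 and 2600 CPM in the monolayer (-7.66 ± 0.60, adjusted p = 9.42e-09). AHNAK2, a large scaffold protein, RGCC, a cell cycle regulator, and ATP6V0D2, a subunit of the vacuolar proton pump, fell by 7.66 ± 0.39, 7.54 ± 0.42 and 7.51 ± 0.37 on the log2 scale. None of the 5 had a Day 10 library within the range of the monolayer, which the rule that chose them also required. The interval covers counting error only, since the reads carry no molecular identifiers.

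**Figure D2:**
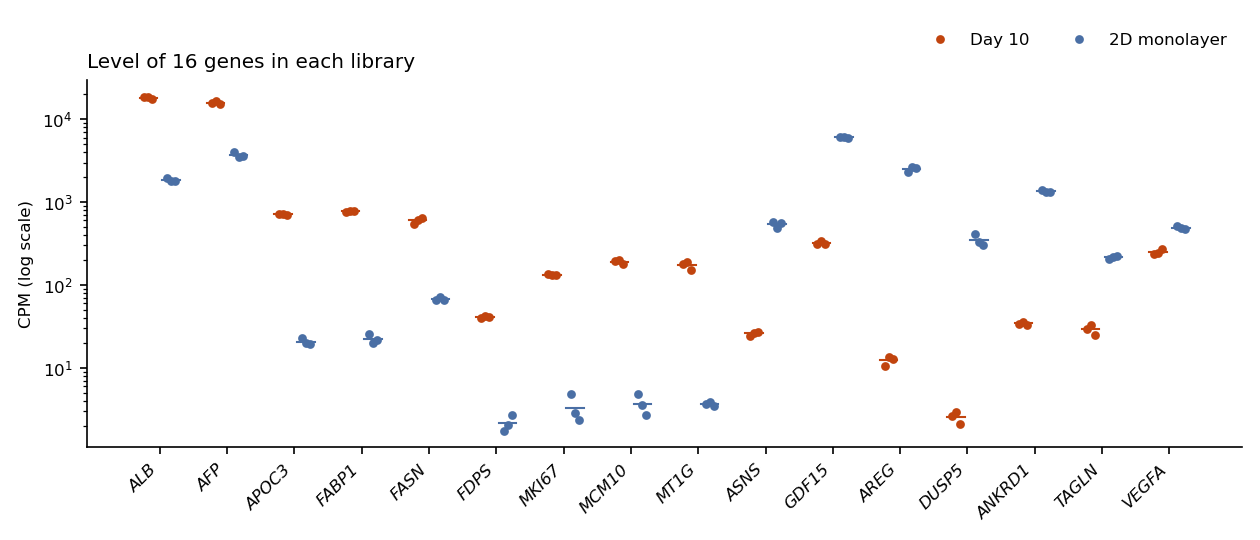
Level of 16 genes in CPM on a log scale, in the 3 Day 10 libraries (red, left of each pair) and the 3 monolayer libraries (blue); the short lines are the means. ALB, AFP, APOC3, FABP1, FASN, FDPS, MKI67, MCM10 and MT1G lie higher at Day 10, and the other 7 genes lower, with no overlap.

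Genes for secreted plasma proteins were higher at Day 10 as a group. Of 33 tested, 27 were higher and none lower by 2-fold, with a median log2 fold change of 2.63, and the list took 7.44 to 7.63% of the counts at Day 10, against 1.78 to 1.93% in the monolayer. ALB, which encodes albumin, stood at 18368, 18577 and 17734 CPM at Day 10 and at 1952, 1794 and 1822 CPM in the monolayer (log2 difference 3.30 ± 0.16, adjusted p = 5.29e-13). AFP, its fetal counterpart alpha-fetoprotein, stood at 15818, 16678 and 15331 CPM at Day 10, against 4064, 3548 and 3590 CPM in the monolayer (2.09 ± 0.15). Both genes were thus far above the monolayer range in every Day 10 library. TTR, the thyroxine and retinol carrier transthyretin, stood at 2506, 2581 and 2549 CPM at Day 10, against 216, 213 and 210 CPM (3.58 ± 0.11). The strongest members on the log2 scale were ITIH1, a stabiliser of hyaluronan (5.12 ± 0.21), and hemopexin HPX, which binds heme (4.85 ± 0.29). Another 3 of the 33 were called higher and 1 lower by less than 2-fold.

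Clotting, complement and lipoprotein genes were also higher. Of 27 coagulation and complement genes, 22 were higher and none lower (median 2.13). MBL2, the mannose-binding lectin that starts a complement pathway, stood at 72.9, 81.0 and 87.6 CPM at Day 10 and at 4.45, 3.51 and 4.10 CPM in the monolayer (4.34 ± 0.12). PLG, which encodes plasminogen, had 78 counts over the Day 10 libraries and 0 over the monolayer libraries, at least 26.5-fold higher with 3 counts over the group as the floor. Of 16 apolipoprotein and lipoprotein genes, 11 were higher and none lower (median 2.43). APOC3, an inhibitor of lipoprotein lipase, stood at 717, 717 and 704 CPM at Day 10, against 22.7, 20.1 and 19.1 CPM (5.12 ± 0.12), and APOA4 was higher by 4.58 ± 0.18 on the log2 scale. APOA2, APOE and APOC1, called but under 2-fold, differed by 0.45 to 0.63.

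Acute phase and iron genes were split. Of 10 acute phase genes, 4 were higher and 4 lower (median -0.77). The antimicrobial peptide gene LEAP2 stood at 208, 235 and 260 CPM at Day 10, against 3.86, 4.30 and 5.01 CPM in the monolayer (5.73 ± 0.13), while SOCS3, a brake on cytokine signalling, and LCN2, which captures bacterial iron carriers, fell by 4.61 ± 0.72 and 3.6 ± 0.13 on the log2 scale. Of 16 iron handling genes, 9 were higher and 4 lower (median 2.73). HFE, a regulator of the iron hormone hepcidin, stood at 4.68, 4.98 and 5.81 CPM at Day 10, against 0.0847, 0.0763 and 0.0651 CPM (6.04 ± 0.41). BMP6, an inducer of hepcidin, stood at 0.0414, 0.0272 and 0.355 CPM, against 7.46, 8.22 and 8.88 CPM (-5.81 ± 0.55). HAMP, the gene of hepcidin itself, was higher by 4.05 ± 0.39.

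Sterol synthesis genes were higher at Day 10 almost throughout. Of 25 genes for cholesterol synthesis and uptake, 23 were higher and 1 lower, with a median log2 fold change of 2.4, and their share of the counts was 0.826 to 0.879% at Day 10 and 0.168 to 0.174% in the monolayer. FDPS, farnesyl diphosphate synthase, stood at 40.2, 42.3 and 41.2 CPM at Day 10 and at 1.74, 2.06 and 2.67 CPM in the monolayer (4.24 ± 0.17, adjusted p = 1.67e-20), and no library of one group lay within the range of the other. The letters TCACNCCAC of the sterol regulatory element were on either strand in 1 of the list's 18 promoter windows in RefSeq (5.56%), that of SREBF2, and in 1.21% of the windows of tested genes. SREBF2 was not among the higher genes, with means of 38.7 CPM at Day 10 and 38.05 CPM in the monolayer.

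Fatty acid genes were mostly higher, in synthesis and in oxidation. Of 27 genes for fatty acid and triglyceride synthesis, 16 were higher and 3 lower (median 1.53). FASN, fatty acid synthase, stood at 540, 614 and 652 CPM at Day 10 and at 66.0, 72.4 and 66.0 CPM in the monolayer (3.14 ± 0.09). PNPLA3, a lipid droplet protein, had 177 counts at Day 10 and 1 in the monolayer (ratio 180, 95% counting interval 32 to 7160), and LPIN2, a phosphatidate phosphatase, fell by 2.11 ± 0.09 on the log2 scale. Of 27 genes for fatty acid oxidation and ketogenesis, 15 were higher and 1 lower (median 1.10). FABP1, the liver fatty acid binding protein, stood at 770, 791 and 776 CPM at Day 10, against 25.5, 19.7 and 21.7 CPM (5.13 ± 0.15). The exception was ACSL1, which activates long-chain fatty acids, at -1.41 ± 0.14.

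Amino acid, nitrogen and glucose genes differed less uniformly, with more members higher than lower in each list. Of 26 amino acid catabolism genes, 14 were higher and 3 lower (median 1.77). BHMT, which remethylates homocysteine, had 64 counts at Day 10 and 0 in the monolayer, at least 21.7-fold higher, and KYNU, kynureninase, fell by 2.42 ± 0.08 on the log2 scale. Of 13 urea cycle and ammonia genes, 7 were higher and 2 lower (median 1.31). The list's share of the counts was nevertheless smaller at Day 10, 0.0517 to 0.0544% against 0.1108 to 0.1135% in the monolayer. The arginase genes went opposite ways: ARG1, the liver arginase, stood at 3.85, 5.83 and 6.10 CPM at Day 10 and at 0.127, 0.0254 and 0.0651 CPM in the monolayer (6.26 ± 0.55), while ARG2, the mitochondrial one, stood at 87.6, 84.6 and 83.8 CPM, against 914, 914 and 908 CPM (-3.42 ± 0.07). CPS1, the first enzyme of the cycle, was higher by 1.75 ± 0.16.

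Of 19 gluconeogenesis and glycogen genes, 9 were higher and 5 lower (median 0.85). Their share of the counts was nevertheless smaller at Day 10, 0.0973 to 0.104% against 0.183 to 0.188% in the monolayer. G6PC, glucose 6-phosphatase, which releases free glucose, stood at 25.5, 27.9 and 43.6 CPM at Day 10 and at 0.466, 0.560 and 0.846 CPM in the monolayer (5.67 ± 0.31). The glycogen-targeting subunits PPP1R3C and PPP1R3B differed in direction, at 4.75 ± 0.17 and -3.76 ± 0.39 on the log2 scale. Of 23 glycolysis genes, 13 were higher and 3 lower (median 1.16), with PFKFB4 and aldolase ALDOC at 3.74 ± 0.17 and 3.69 ± 0.22 and PFKP, the platelet phosphofructokinase, at -2.80 ± 0.16. Of 45 oxidative phosphorylation genes, 11 were higher and none lower by 2-fold (median 0.42).

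Drug-metabolising and transport genes were higher in most cases. Of 22 phase I genes, 16 were higher and 2 lower (median 2.14). The second of the lower ones lost its 2-fold call without any one of 5 of the 6 libraries, all but monolayer replicate 1. CYP4F2, a fatty acid hydroxylase, stood at 10.9, 11.1 and 11.5 CPM at Day 10 and at 0.169, 0.153 and 0.455 CPM in the monolayer (5.42 ± 0.36). CYP3A4, a main drug-oxidising P450, was near the detection limit, at 1.08, 1.09 and 1.16 CPM, against 0, 0.102 and 0.0651 CPM (4.05 ± 0.62). The aldehyde oxidase gene AOX1 fell to 54.9, 55.0 and 59.7 CPM at Day 10, against 275, 278 and 263 CPM (-2.27 ± 0.08). Of 21 phase II genes, 15 were higher and none lower (median 1.54), among them the estrogen sulfotransferase SULT1E1 at 4.15 ± 0.44 and the glutathione transferase GSTA1 at 4.01 ± 0.48. UGT, SULT1A and GST genes have close relatives that can share counts.

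Of 17 hepatic transporters, 9 were higher and 3 lower (median 1.23). The summed level of the list was nevertheless lower at Day 10, at 1190 to 1291 CPM, against 1669 to 1699 CPM in the monolayer. The organic anion transporters SLC22A7 and SLC22A9 led at 4.81 ± 0.39 and 4.41 ± 0.15 on the log2 scale, and ABCB4, the phospholipid pump of bile, stood at 1.53, 1.01 and 1.06 CPM at Day 10 and at 5.76, 7.99 and 6.18 CPM in the monolayer (-2.49 ± 0.25). Of 14 bile acid genes, 8 were higher and 3 lower (median 1.47). KLB, the coreceptor for the gut hormone FGF19, stood at 221, 222 and 251 CPM at Day 10, against 23.0, 23.7 and 24.2 CPM (3.29 ± 0.07), and BAAT, which conjugates bile acids, fell by 2.41 ± 0.17. CYP7A1, the rate-limiting enzyme, was not called: it stood at 0.538, 0.817 and 1.19 CPM at Day 10 and at 0.635, 0.305 and 0.390 CPM in the monolayer, and the groups overlapped (0.99 ± 0.47, adjusted p = 0.0532). It was called without Day 10 replicate 1 or monolayer replicate 1 (adjusted p = 0.0306 and 0.0303), with library size alone as scaling (0.0288) and in DESeq2's Wald test (0.0474).

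Hepatocyte transcription factors showed no common direction, with 9 of 24 higher and 3 lower (median 0.34). HNF4A, a central regulator of hepatocyte genes, stood at 17.7, 19.8 and 16.2 CPM at Day 10 and at 6.95, 6.59 and 7.91 CPM in the monolayer (1.33 ± 0.11). CEBPA, which restrains hepatocyte proliferation, stood at 155, 162 and 158 CPM, against 22.8, 23.6 and 22.1 CPM (2.80 ± 0.08), and ONECUT1 was higher by 2.71 ± 0.25. FOXA3, a pioneer factor, fell by 1.77 ± 0.08 on the log2 scale. Of 15 fetal liver and oncofetal genes, 7 were higher and 3 lower (median 0.97), with TSPAN8 and the imprinted gene PEG3 at 3.09 ± 0.27 and 3.00 ± 0.20 and keratin KRT19 at -3.09 ± 0.19. Of 15 WNT and zonation genes, 7 were higher and 1 lower (median 0.96), the ammonium transporter RHBG at 3.12 ± 0.30 and the WNT antagonist DKK1 at -1.60 ± 0.26.

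Genes of mitosis, DNA replication and histones were higher at Day 10. All 32 mitosis genes tested were higher, with a median log2 fold change of 4.81, and their share of the counts was 0.284 to 0.307% at Day 10 and 0.00887 to 0.0108% in the monolayer. MKI67, which encodes the Ki-67 antigen of cycling cells, stood at 137, 132 and 132 CPM at Day 10 and at 4.79, 2.82 and 2.31 CPM in the monolayer (5.38 ± 0.21, adjusted p = 8.25e-14). PLK1, a kinase of mitotic entry, stood at 18.8, 19.98 and 15.2 CPM, against 0.339, 0.305 and 0.228 CPM (5.94 ± 0.28). No Day 10 library came near the monolayer range for either gene. Of 39 DNA replication genes, 38 were higher and none lower (median 3.56), with RRM2, part of ribonucleotide reductase, at 5.75 ± 0.33 and MCM10, a replication initiation factor, at 5.73 ± 0.25. Of 31 replication-dependent histone genes, 28 were higher and 2 lower (median 3.75), with H2BC21 at -2.61 ± 0.43.

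ASPM, a spindle pole protein, had the largest log2 fold change of the mitosis list, with 158 counts at Day 10 and 2 in the monolayer (ratio 80.5, 95% counting interval 21.9 to 671). Its RefSeq promoter window (GRCh38.p14, chr1:197146620-197146919, minus strand, 250 bases before the start to 50 after it) is shown because it holds the letters TTTGAA of the cell cycle homology region, read on the other strand as TTCAAA, here in capitals and 113 bases before the start.
ASPM: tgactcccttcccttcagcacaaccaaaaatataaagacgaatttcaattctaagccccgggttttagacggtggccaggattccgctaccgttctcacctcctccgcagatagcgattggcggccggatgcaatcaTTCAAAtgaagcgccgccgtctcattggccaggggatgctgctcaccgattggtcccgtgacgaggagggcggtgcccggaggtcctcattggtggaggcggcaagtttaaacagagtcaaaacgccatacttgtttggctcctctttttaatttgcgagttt
These letters on either strand were in 16 of the 25 mitosis genes with a window in RefSeq (64.0%), in 9.97% of the windows of 9932 tested genes and in 15.2% of all 35116 windows. A match describes letters and not a bound site.

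The cell cycle brakes and p53 targets did not follow the same pattern. Of 17 G1 cyclins and inhibitors, 3 were higher and 3 lower (median -0.19). The inhibitor genes CDKN2C and CDKN2D went opposite ways, at 5.94 ± 0.44 and -1.64 ± 0.27 on the log2 scale. CDKN1A, the inhibitor p21, stood at 1.16, 1.23 and 1.32 CPM at Day 10 and at 3.56, 3.56 and 2.64 CPM in the monolayer (-1.39 ± 0.34). CCND1, cyclin D1, stood at 5.05, 3.65 and 5.61 CPM at Day 10 and at 2.63, 4.68 and 2.96 CPM in the monolayer, with overlap and no call (0.45 ± 0.21, adjusted p = 0.0521); it was called without Day 10 replicate 2 (adjusted p = 0.0128) or monolayer replicate 2 (adjusted p = 0.00321), with library size alone as scaling (adjusted p = 0.0162) and with no low count filter (adjusted p = 0.04). Of 22 p53 targets, 9 were lower and 1 higher (median -0.55), with PLK3 at -4.33 ± 0.47. The 1 higher, SPATA18 (1.63 ± 0.67), was lost without Day 10 replicate 1 or monolayer replicates 1 or 2 (adjusted p = 0.154, 0.119 and 0.0828), and without Day 10 replicate 3 the count was 2.

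Genes of the amino acid response fell. ATF4 is a transcription factor translated when amino acids run short or proteins misfold, and its targets import and make amino acids. Of 31 targets tested, 22 were lower and 1 higher, with a median log2 fold change of -2.09, and the list took 0.367 to 0.395% of the counts at Day 10, against 4.36 to 4.61% in the monolayer. Much of that share belonged to TRIB3, a feedback inhibitor singled out after its values were seen, at 2119, 2199 and 1943 CPM at Day 10 and 37743, 33926 and 34327 CPM in the monolayer (-4.08 ± 0.11). ASNS, asparagine synthetase, stood at 24.2, 26.5 and 27.4 CPM at Day 10 and at 570, 493 and 562 CPM in the monolayer (-4.38 ± 0.07, adjusted p = 4.94e-30). Both genes were more than 10 times lower in every Day 10 library than in any monolayer library. PPP1R15A, a phosphatase subunit that restores translation, fell by 4.60 ± 0.08, and GDF15, a stress hormone also held in the p53 list, fell by 4.24 ± 0.08 on the log2 scale. PSPH, the last enzyme of serine synthesis, was the 1 member that was higher (2.39 ± 0.11).

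ATF3, itself a transcription factor of this response and an immediate early gene, had the largest fall of the list, to 0.166, 0.354 and 0.161 CPM at Day 10, against 7.58, 10.0 and 9.89 CPM in the monolayer (-5.26 ± 0.39). Its RefSeq promoter window (GRCh38.p14, chr1:212565157-212565456, plus strand) is shown because it holds the C/EBP-ATF response element TGATGNAA, in capitals, 191 bases before the start.
ATF3: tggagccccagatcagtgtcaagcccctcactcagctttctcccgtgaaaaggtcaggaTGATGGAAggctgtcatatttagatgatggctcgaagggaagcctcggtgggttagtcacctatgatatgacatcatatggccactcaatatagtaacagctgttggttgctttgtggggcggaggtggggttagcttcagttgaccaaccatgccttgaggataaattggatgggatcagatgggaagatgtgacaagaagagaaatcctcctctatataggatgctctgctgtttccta
These letters on either strand were in 6 of 26 windows of the list (23.1%), those of ATF3, ASNS, CHAC1, SLC7A1, SLC3A2 and FGF21, in 1.77% of the windows of tested genes and in 3.62% of all windows.

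Among genes of tRNA charging and protein folding, those that passed were mostly lower. Of 19 aminoacyl-tRNA synthetases, which charge tRNAs, 9 were lower and none higher (median -1.0), led by CARS1 (-2.91 ± 0.12) and SARS1 (-2.64 ± 0.08). Of 23 ER chaperone and unfolded protein response genes, 8 were lower and 1 higher (median -0.71). ERN1, the ER stress sensor IRE1, stood at 2.07, 1.06 and 1.06 CPM at Day 10 and at 22.4, 24.3 and 23.1 CPM in the monolayer (-4.10 ± 0.36), and DNAJB9, an ER cochaperone, fell by 3.49 ± 0.10. Of 20 heat shock genes, 9 were lower and none higher by 2-fold (median -0.88), with HSPB8 at -4.38 ± 0.24 and HSPA1A, which can share counts with HSPA1B, at -3.71 ± 0.26. Of 44 ribosomal protein genes, 34 were called lower, 4 of them by 2-fold (2 without monolayer replicate 2 and 0 with library size alone as scaling), and the median was -0.60; RPL7 alone was higher by 2-fold (1.92 ± 0.19).

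Most redox and lysosome genes that passed were lower, and metal-binding genes were higher. Of 25 NRF2 targets, which defend against oxidants, 12 were lower and 2 higher (median -0.92). SRXN1, sulfiredoxin, stood at 75.3, 81.1 and 76.3 CPM at Day 10 and at 957, 1116 and 1052 CPM in the monolayer (-3.75 ± 0.10), while the heme oxygenase HMOX1 was higher by 1.90 ± 0.11. Of 25 lysosome genes, 7 were lower and 3 higher (median -0.65), with the autophagy receptor SQSTM1 at -3.48 ± 0.08 and acid glucosidase GAA at 2.4 ± 0.14. Of 10 metallothionein and zinc genes, 9 were higher and none lower (median 3.07). MT1G, a metallothionein, stood at 181, 192 and 153 CPM at Day 10, against 3.64, 3.84 and 3.45 CPM (5.58 ± 0.35). Metallothionein genes are near-identical, and their single values are uncertain.

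Most immediate early genes were lower. Of 22 immediate early genes, which respond within minutes to growth factors and stress, 17 were lower and none higher, with a median log2 fold change of -2.77. KLF4, a transcription factor, stood at 0.786, 0.762 and 0.645 CPM at Day 10 and at 30.8, 32.2 and 30.3 CPM in the monolayer (-5.41 ± 0.26). Of 14 ERK feedback genes, 7 were lower and none higher (median -1.10). DUSP5, a phosphatase of ERK, stood at 2.65, 2.91 and 2.10 CPM at Day 10, against 410, 333 and 306 CPM (-7.09 ± 0.37), and DUSP1 fell by 3.81 ± 0.09. The letters TGACGTCA of the cyclic AMP response element were in 1 of 17 windows of immediate early genes (5.88%), that of JUND, and in 3.25% of the windows of tested genes.

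Of 12 EGF receptor ligands and receptors, 7 were lower and 1 higher (median -1.57). Besides AREG, the ligand epiregulin EREG stood at 0.372, 0.245 and 0.161 CPM at Day 10 and at 27.1, 29.7 and 26.5 CPM in the monolayer (-6.76 ± 0.42), while the receptor ERBB3 was higher by 1.76 ± 0.07. Of 16 NF-kB and inflammation genes, 10 were lower and none higher (median -2.64). IL11, a cytokine, stood at 0.0828, 0.0817 and 0.129 CPM at Day 10, against 16.9, 19.2 and 19.03 CPM (-7.50 ± 0.51), and the chemokine CXCL8 fell by 4.87 ± 0.30. Of 16 apoptosis and death genes, 5 were higher and 8 lower (median -1.02). The death ligand TNFSF10 was higher by 3.65 ± 0.36, and BBC3, a p53-induced killer protein, fell by 2.91 ± 0.08 on the log2 scale.

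Targets of YAP were mostly lower. Of 20 YAP and TEAD targets, 13 were lower and 1 higher, with a median log2 fold change of -1.34; the higher one, BIRC5, is also a mitosis gene. AXL, a receptor tyrosine kinase, fell to 2.07, 1.36 and 2.00 CPM at Day 10, against 91.2, 90.4 and 83.3 CPM in the monolayer (-5.63 ± 0.30). ANKRD1, a nuclear ankyrin repeat protein, fell to 34.01, 36.1 and 33.1 CPM, against 1417, 1327 and 1341 CPM (-5.31 ± 0.19). For both, the highest Day 10 library was far below the lowest monolayer library. The RefSeq window of ANKRD1 (GRCh38.p14, chr10:90921038-90921337, minus strand) is shown because it holds the TEAD letters GGAATG at 2 places, 220 and 128 bases before the start, in capitals.
ANKRD1: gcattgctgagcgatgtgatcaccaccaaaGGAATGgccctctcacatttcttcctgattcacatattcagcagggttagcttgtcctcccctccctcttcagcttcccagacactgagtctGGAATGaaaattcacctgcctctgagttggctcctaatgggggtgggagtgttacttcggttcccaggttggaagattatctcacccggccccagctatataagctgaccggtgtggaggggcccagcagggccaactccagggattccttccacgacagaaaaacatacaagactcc
The letters were on either strand in 7 of 13 windows of the list (53.8%), in 10.9% of those of tested genes and in 14.0% of all windows.

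Of 31 actin and focal adhesion genes, 12 were lower and 5 higher (median -0.62). TAGLN, an actin-bundling protein of stress fibres, fell to 29.4, 32.9 and 24.9 CPM at Day 10, against 203, 220 and 225 CPM in the monolayer (-2.89 ± 0.18). ACTB, beta-actin, rose slightly, with 286, 307 and 293 CPM at Day 10 and 177, 206 and 194 CPM in the monolayer (0.62 ± 0.08), and ACTA2, smooth muscle actin, was higher by 1.26 ± 0.14. Of 22 collagen, laminin and integrin genes, 6 were higher and 10 lower (median -0.90). The integrin chains ITGA3 and ITGA2, receptors for laminin and collagen, fell by 4.27 ± 0.36 and 3.31 ± 0.22, and LAMA5, a laminin of basement membranes, stood at 18.3, 27.7 and 26.1 CPM at Day 10, against 2.41, 3.10 and 3.06 CPM (3.06 ± 0.25). Of 23 junction genes, 8 were lower and 4 higher (median -0.42). OCLN, occludin of tight junctions, fell to 71.6, 68.5 and 81.5 CPM at Day 10, against 660, 718 and 705 CPM (-3.23 ± 0.07), and 4 of 6 keratins were lower, KRT80 by 5.82 ± 0.35 on the log2 scale.

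**Figure D3:**
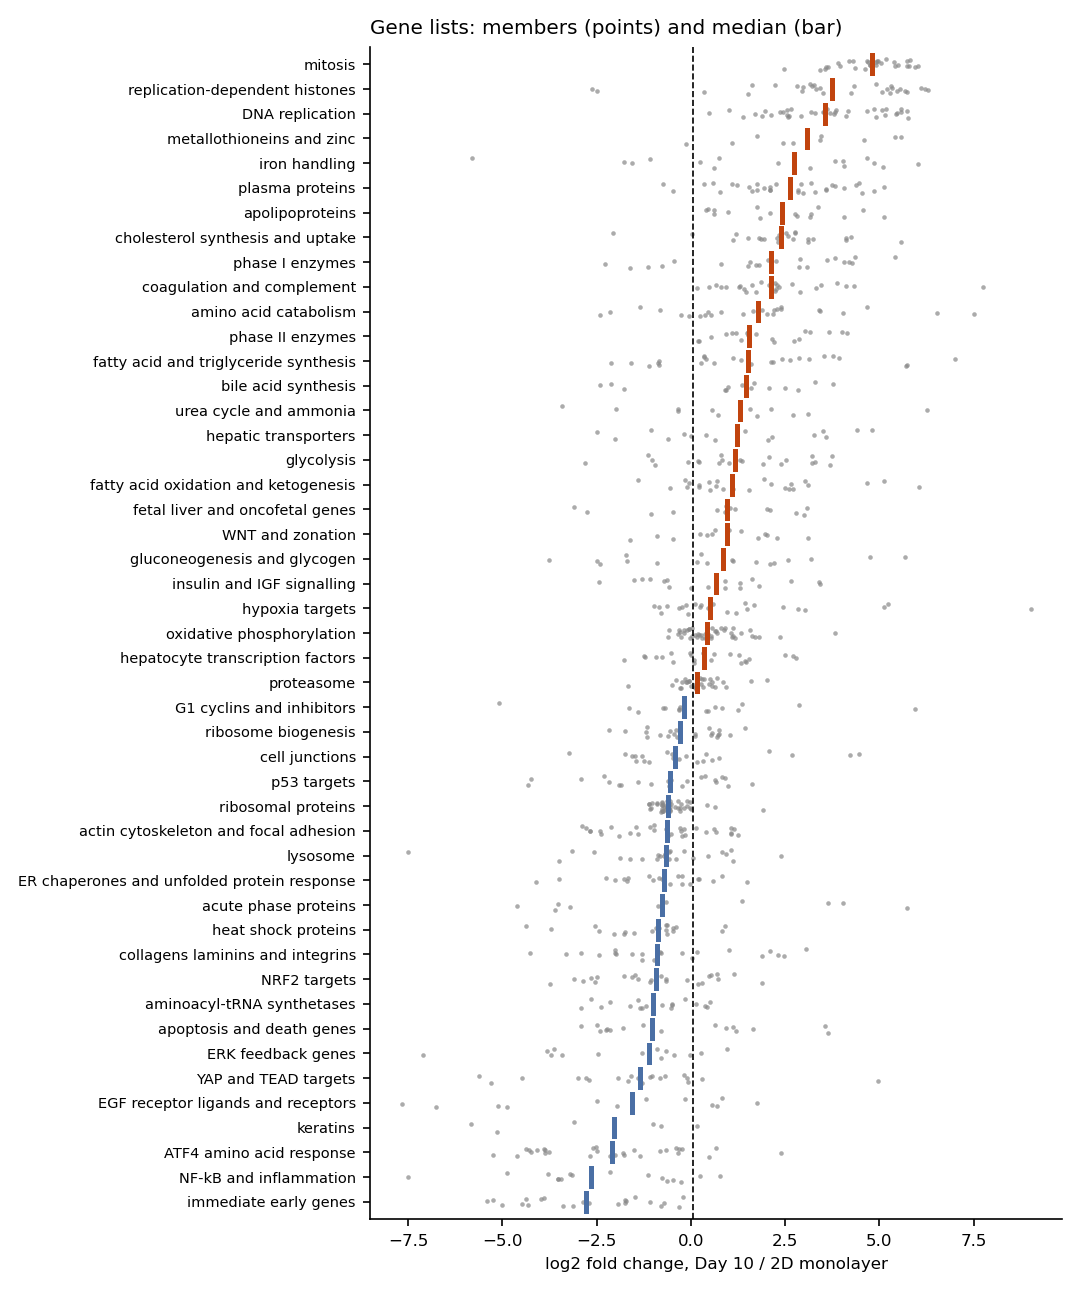
Log2 fold change, Day 10 over 2D monolayer, of each tested member (grey points) of 47 gene lists and the list median (bar, red above 0 and blue below). The dashed line is the median over all 12345 genes, 0.05; list medians run from 4.81 for mitosis to -2.77 for immediate early genes.

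Fewer genes passed in ribosome biogenesis (2 higher and 5 lower of 24, median -0.29) and the proteasome (2 higher and 1 lower of 31, median 0.17). Insulin and IGF signalling was mixed, with 6 higher and 4 lower of 18 (median 0.67). A total of 19 genes had at most 3 counts over the monolayer libraries and at least 1 CPM at Day 10. SLC28A1, a nucleoside transporter, had 116 counts at Day 10 and 0 in the monolayer, at least 39.4-fold higher. Another 21 genes had at most 3 counts at Day 10 and at least 1 CPM in the monolayer. NEURL1, a ubiquitin ligase, had 0 counts at Day 10 and 140 in the monolayer, at least 45.8-fold lower, and the fibroblast growth factor FGF2 had 1 count at Day 10 and 118 in the monolayer (ratio 116 in favour of the monolayer, 95% counting interval 20.4 to 4610).

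Hypoxia targets, genes that hypoxia-inducible factors switch on when oxygen is low, did not move together against the monolayer. Of 24, 10 were higher and none lower by 2-fold (1 lower without Day 10 replicate 3 or monolayer replicate 3), and the median was 0.52. EPO, erythropoietin, stood at 2.69, 1.36 and 2.07 CPM at Day 10 and at 0 in every monolayer library, 179 counts against 0, at least 60.8-fold higher. CA9, a carbonic anhydrase, stood at 2.23, 1.66 and 1.29 CPM at Day 10, against 0.0424, 0.0763 and 0 CPM (5.22 ± 0.68). VEGFA, the endothelial growth factor, fell to 234, 242 and 272 CPM at Day 10, against 521, 486 and 473 CPM in the monolayer (-0.98 ± 0.06), and ADM, the vasodilator adrenomedullin, fell by 0.80 ± 0.16. Of the 24 targets, 13 were called higher and 5 lower at any size of change.

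To see how Day 10 differed from its neighbours in time, its libraries were compared with those of Days 7 and 14, where the monolayer cancels. Against Day 7, 3382 genes were called (27.4%), 225 by at least 2-fold (1.82%), of which 83 were higher (0.672%) and 142 lower (1.15%). Without Day 10 replicate 1 the number called lower, 1664 (13.5%), was 1088. Against Day 14, 5967 genes were called (48.3%), 1361 by at least 2-fold (11%), 845 higher (6.84%) and 516 lower (4.18%). Both comparisons use the same Day 10 libraries, so they are set side by side and not combined into a test. At least 2-fold from both neighbours, 45 genes were higher at Day 10 and 31 lower (52 lower without Day 10 replicate 3).

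SLC2A3, SLC2A14, ANKRD37 and ADM were among the 5 genes furthest above both neighbours, of those with at least 10 CPM. SLC2A3, the glucose transporter GLUT3, stood at 282, 283 and 264 CPM at Day 10, against 77.2, 65.6 and 55.6 CPM at Day 7 and 72.9, 68.3 and 41.0 CPM at Day 14. No library of either neighbour came near those of Day 10, and the differences were 2.06 ± 0.22 from Day 7 and 2.18 ± 0.22 from Day 14 on the log2 scale (adjusted p = 6.74e-06 and 7.59e-07). Its close copy SLC2A14 lies beside it in GENCODE 29 on GRCh38, at chr12:7812512-7891148 against chr12:7919230-7936275, both on the minus strand, and can share its counts; its differences were 1.99 ± 0.19 and 1.93 ± 0.19. ANKRD37, a HIF target, stood at 35.4, 36.1 and 39.0 CPM at Day 10, against 12.7, 10.96 and 10.5 CPM at Day 7 and 11.1, 11.5 and 8.24 CPM at Day 14. ADM differed by 1.41 ± 0.17 from Day 7 and 1.8 ± 0.17 from Day 14.

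Of the 24 hypoxia targets, 6 were higher by 2-fold than at Day 7 and none lower (median 0.64), and 7 were higher than at Day 14 and 1 lower (median 0.61). Of 23 glycolysis genes, 2 were higher than at Day 7 and 8 higher than at Day 14 (medians 0.46 and 0.89). At any size of change, 15 hypoxia targets were called higher and 0 lower than at Day 7, and 15 higher and 3 lower than at Day 14. LDHA and LOX were singled out after their values were seen and do not stand for the lists. LDHA, lactate dehydrogenase A, averaged 150, 546, 412, 858, 347, 243 and 332 CPM in the monolayer and at Days 3, 7, 10, 14, 21 and 28. LOX, the collagen crosslinker lysyl oxidase, averaged 10.4, 128, 123, 358, 227, 104 and 151 CPM in the same order. Of the 7 groups, Day 10 had the highest mean for both LDHA and LOX. VEGFA, 1 of the 3 hypoxia targets called lower than at Day 14, did not peak at Day 10. It averaged 493, 148, 162, 249, 287, 209 and 308 CPM in the same order.

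**Figure D4:**
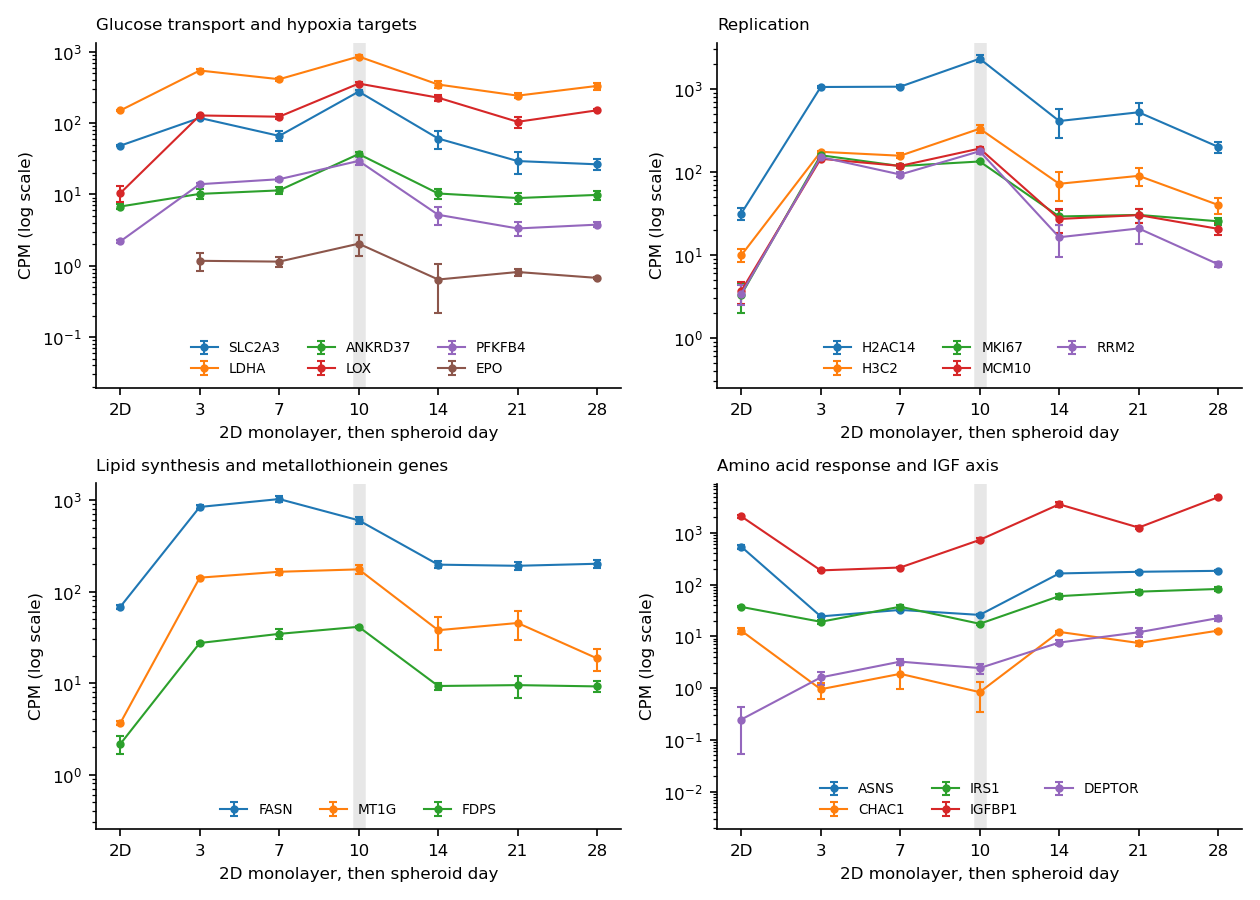
Mean CPM on a log scale with SD (n = 3 libraries) in the 2D monolayer and at spheroid Days 3, 7, 10, 14, 21 and 28, for genes of 4 kinds; the grey band marks Day 10. SLC2A3 peaks at Day 10 with a mean of 276 CPM, and the histone gene H2AC14 with 2312 CPM. EPO is not drawn for the monolayer, where it had 0 counts.

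Many histone genes were also higher at Day 10 than on both neighbouring days, while replication and mitosis genes had smaller median differences from Day 7. Of 31 histone genes, 12 were higher and 1 lower by 2-fold than at Day 7, and 27 were higher than at Day 14 (medians 0.92 and 2.17). The 1 lower than at Day 7 was H2AC6 (-1.39 ± 0.11). H3C15 is outside this list and was another of the genes furthest above both neighbours. It stood at 16.5, 13.9 and 12.9 CPM at Day 10, against 4.63, 5.01 and 5.85 CPM at Day 7 and 4.22, 3.11 and 2.37 CPM at Day 14. Of 39 replication genes, 1 was higher by 2-fold than at Day 7 and 38 than at Day 14 (medians 0.62 and 1.98), and of 32 mitosis genes none and 31 (medians 0.44 and 2.15). At any size of change, 30 replication genes and 13 mitosis genes were called higher than at Day 7, where 13.9% of all genes were. Cholesterol genes (none of 25 higher than at Day 7 and 20 higher than at Day 14, medians -0.18 and 1.85) and metallothionein genes (none and 6 of 10, medians 0.14 and 1.93) likewise separated Day 10 from Day 14 more than from Day 7. Other lists stood lower than at Day 7, where 13.5% of all genes were called lower. At any size of change, 13 of 24 hepatocyte transcription factors and 11 of 17 hepatic transporters were called lower, and 0 of either higher. By 2-fold, 0 and 1 were lower.

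**Figure D5:**
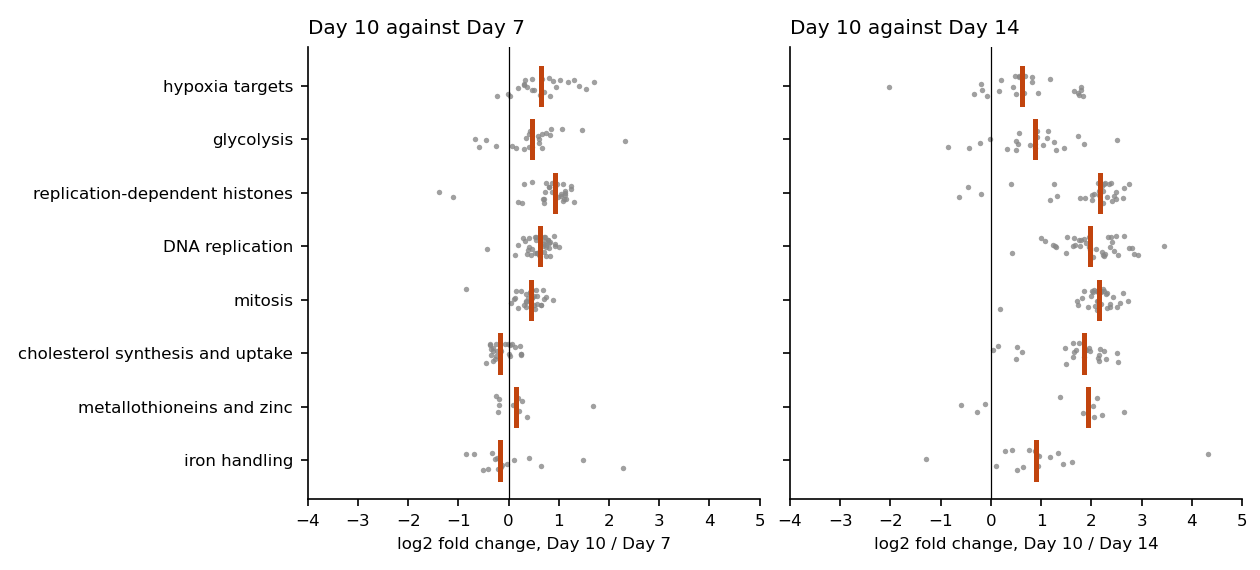
Log2 fold change of Day 10 over Day 7 (left) and of Day 10 over Day 14 (right), 1 grey point per tested member of 8 gene lists, with the list median as a red bar. The mitosis median is 0.44 against Day 7 and 2.15 against Day 14, while the hypoxia median is 0.64 and 0.61.

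Of 31 ATF4 targets, 2 were lower by 2-fold than at Day 7 and 22 lower than at Day 14 (medians -0.05 and -1.52). IRS1, the docking protein of the insulin receptor, stood at 17.1, 17.3 and 18.2 CPM at Day 10, against 34.5, 36.6 and 41.3 CPM at Day 7 and 59.7, 52.6 and 67.4 CPM at Day 14 (-1.10 ± 0.09 and -1.77 ± 0.10). CHAC1, which degrades glutathione, stood at 0.290, 1.25 and 0.968 CPM at Day 10, against 0.996, 2.88 and 1.79 CPM at Day 7 and 12.2, 12.8 and 11.5 CPM at Day 14 (-1.09 ± 0.34 and -3.78 ± 0.31). Its Day 10 and Day 7 libraries overlapped, and that call was lost without Day 10 replicate 1 or Day 7 replicate 2 (adjusted p = 0.0885 and 0.156) and with only the groups compared (adjusted p = 0.0523). MORN4 was lower by 1.15 ± 0.19 than at Day 7 and by 2.03 ± 0.19 than at Day 14. At Day 3, IRS1 averaged 19.1 CPM and CHAC1 0.952 CPM, against 17.5 and 0.837 CPM at Day 10. The low levels of IRS1 and CHAC1 were thus shared with Day 3 and not particular to Day 10.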

How the data were processed

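Raw counts per gene in 19683 genes and 21 libraries were used as deposited by the authors. Per the submitters' processing notes, bcl2fastq 2.20.422, fastp 0.23.2, STAR 2.7.10b, DESeq2 1.38.0 and build GRCh38.p13 were used, with no role stated, and how probes of one gene were combined is not stated in the labels or notes. TempO-Seq reads only the probed stretch, so isoforms and close copies may share a count. Day 10 libraries held 24296372 to 37718667 counts and monolayer libraries 26709296 to 43443262, so counting error matters for genes below about 1 CPM.

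Genes were filtered with filterByExpr (minimum count 10), which kept 12345 genes and removed 0.0108% of all counts. All 21 libraries in 7 groups were fitted with edgeR 4.0.16 (R 4.3.3, TMM, robust quasi-likelihood test, no covariate), and Benjamini-Hochberg adjustment ran over all genes tested. The common biological coefficient of variation was 9.62%, with 14 residual degrees of freedom. The SE was taken from the F statistic. The fit was checked on simulated counts of 12345 genes, 100 changed by 1 and 100 by 2 on the log2 scale. It recovered 89 and 98 of them, with 13 false calls. With so few changed genes, the check cannot speak for a contrast in which 77.9% of genes were called. Alternatives were DESeq2 1.42.0 (size factors and Wald test), library size alone as scaling, no low count filter, the replicate number as a block, only the groups compared, and each replicate left out.

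The gene lists, members and rules were chosen with earlier results of these data known. Named genes were the 5 largest rises and falls of at least 10 CPM without overlap, up to 3 members per list, a short set of liver, proliferation and signalling genes, and the genes furthest from both neighbouring days. Genes named for other reasons, such as those with 0 counts in a group, the largest member in the minor direction, TRIB3, LDHA and LOX, were chosen after their values were seen. Some genes that the rule names are not reported here. Of 1136 listed genes, 1135 were in the table and 1028 were tested, and 26 stood in more than 1 list. Promoter windows came from RefSeq (GRCh38.p14) and were matched by symbol. Where a symbol had several windows, only the first was used for list members and tested genes, so other start sites were not searched. Gene coordinates came from GENCODE 29 on GRCh38.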

Additional observations from a re-analysis of the deposited data

Results flagged for a closer look

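For 8 genes, the Day 10 difference from the monolayer departed from that of a neighbouring day when the difference itself was tested within the same edgeR fit, where the shared monolayer cancels. The values are log2 differences of Day 10 from Day 7 and then from Day 14. SLC2A3, the glucose transporter, stood 2.06 and 2.18 higher, and SLC2A14, which can share its counts, 1.99 and 1.93 higher. ANKRD37, a HIF target, stood 1.69 and 1.84 higher. H3C15, a histone H3 gene with near-identical copies, stood 1.48 and 2.15 higher. ADM, adrenomedullin, stood 1.41 and 1.8 higher. The genes on the other side were MORN4 at -1.15 and -2.03, the insulin receptor substrate IRS1 at -1.1 and -1.77, and CHAC1, which degrades glutathione, at -1.09 and -3.78. All 16 values came from genes chosen by the size of these same differences, and both columns share the Day 10 libraries.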

How the results depend on the processing

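The counts of genes called against the monolayer kept within 1.5 times under every alternative run. Against 4936 higher and 4682 lower, DESeq2's Wald test gave 4954 and 4712, no low count filter gave 5009 and 4662, and only the groups compared gave 4735 and 4676. Library size alone as scaling moved the median of all genes by 0.136 on the log2 scale and the split to 5402 higher and 4195 lower (56.3% of calls higher against 51.3%). Leaving out 1 replicate gave 4734 to 4870 higher and 4468 to 4684 lower. Genes called lower at Day 10 than at Day 7, 1664 in the full data, ranged from 1088 (without Day 10 replicate 1) to 1625, and genes lower than at both neighbours, 31 in the full data, from 24 to 52 (without Day 10 replicate 3); the cause was not tested. The median of the endothelial marker list, 4 tested genes near the detection limit, was 0.08 and changed sign to -1.573 with only the groups compared, and ran from -0.418 to 0.732 with 1 replicate left out (-0.174 without 2D monolayer replicate 1, -0.193 without replicate 3). Of the other list medians, none changed sign, 43 of 51 moved beyond the replicate spread with library size alone as scaling (by at most 0.14), and 72 of 561 values did under the other alternatives (the largest shift was 1.08, for the 2 tested stellate markers without 2D monolayer replicate 2). Among named genes, 2063 values kept direction and call, 8 gained a call, 11 lost one and none changed sign. The deviations of same-numbered Day 10 and monolayer libraries had correlations of 0.0439, 0.0148 and 0.0243, against -0.058 to 0.0382 for unlike numbers. Correlations this low cannot show whether same-numbered libraries shared a culture or batch, so pairing was not settled. With the replicate number as a block, 4948 genes were higher and 4693 lower, 4918 and 4668 of them shared. Depth limits genes such as CYP7A1 and CYP3A4, at about 1 CPM or less. Of the 2-fold counts per gene list, 11 moved by over 1.5 times under at least 1 alternative (24 values in all), such as ribosomal proteins lower, 4 in the full data and 0 with library size alone as scaling.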
